A study of Mus musculus with 4 samples.

Results

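The genes described here lie on mouse chromosome 6, in RNA-seq data from embryonic stem cells with and without ZFP57. Members were all rows for chromosome 6 in the 2 deposited tables, apart from 20 named symbols (imprinted genes such as Peg10 and Mest, Nanog, Gapdh and others) and 6 symbol families (Zfp, Rpl, Rps, Itg, Lam and Hist). This left 1318 of the 1360 chromosome 6 rows and of the 26130 rows in all. The chromosome was chosen because its genes had been seen to lie lower in the knockout library of the line E14, so every E14 knockout value below is a description without a test.

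The study compared wild-type and Zfp57-/- cells in a pair of lines: E14, of strain 129P2/OlaHsd, and JB1, of strain JF1/B6. Each of the 4 combinations was 1 library. Culture was on gelatin with no feeder layer, in medium with serum and leukemia inhibitory factor (LIF), and libraries were made with a stranded poly(A) mRNA kit. The labels do not say whether a knockout line came from 1 clone, which part of Zfp57 was removed, or how many passages separated a knockout from its parent line. The study asked how mRNA levels differ without ZFP57.

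ZFP57 is a KRAB zinc finger protein that binds a methylated motif at imprinting control regions and recruits the corepressor KAP1 there, which keeps the methylation of the marked copy. Mouse chromosome 6 carries housekeeping genes along its length, the Hoxa cluster of developmental regulators, and clusters of taste, pheromone and natural killer receptors and immunoglobulin kappa genes that embryonic stem cells do not use. Levels are given in RPM (reads scaled to library size, per 1e+06 reads), a share of a library with no correction for length, which is why genes are compared between libraries and not with each other. Pairs of levels joined by "versus" give wild type first and knockout second.

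The listed genes held 26801865 to 66849394 reads per library. Zfp57 was 135 versus 51.8 RPM in E14 and 796 versus 42.9 RPM in JB1, lower in the knockout of each line as labelled. All 9 stem cell markers examined were at 7.75 RPM or more in every library, and they summed to between 3133 RPM (E14 knockout) and 5022 RPM (JB1 wild type). The 7 markers of primitive endoderm summed to 15.0, 12.6, 37.0 and 51.5 RPM in E14 wild type, E14 knockout, JB1 wild type and JB1 knockout. Among them, Dab2 was 20.2 versus 29.6 RPM and Cubn 2.43 versus 8.89 RPM in JB1. Gata4 was lower in both knockouts, at 2.20 versus 1.15 RPM in E14 and 6.10 versus 2.97 RPM in JB1. The 9 markers of fibroblasts or feeder cells summed to 18.8, 32.3, 19.2 and 53.8 RPM, of which Vim made up 15.0, 27.6, 7.05 and 37.4 RPM. Col1a1 was 0.139 versus 0.240 RPM in E14 and 3.67 versus 5.19 RPM in JB1, Thy1 was 1.17 versus 1.23 RPM and 3.61 versus 7.95 RPM, and Col3a1 and Postn were between 0 and 0.255 RPM. Twist1 was lower in the JB1 knockout, at 3.40 versus 0.814 RPM, and 0.911 versus 1.06 RPM in E14. Col1a2 was 0.158 versus 0.354 RPM in E14 and 0.332 versus 0.309 RPM in JB1. The part of these cell types in the values below was not tested. In bulk RNA, fewer cells of a type and less RNA per cell cannot be told apart.

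Promoters of members at either end of the E14 order are printed first, with the core of the ZFP57 motif, TGCCGC on either strand, in capitals where it occurs, because the motif is the only sequence the study's protein is known to read. Each line gives the 250 bases before the annotated start, 5′ to 3′ on the gene's strand, from RefSeq on GRCm38.p6. Trh (chr6:92244651-92244900, minus strand) had the lowest E14 difference. Etnk1 (chr6:143166980-143167229, plus strand) was the only one with the motif among the 7 of the 8 lowest genes that had a promoter in the table, and it began at position −86. Smyd1 (chr6:71262282-71262531, minus strand) had the second highest E14 difference.
Trh: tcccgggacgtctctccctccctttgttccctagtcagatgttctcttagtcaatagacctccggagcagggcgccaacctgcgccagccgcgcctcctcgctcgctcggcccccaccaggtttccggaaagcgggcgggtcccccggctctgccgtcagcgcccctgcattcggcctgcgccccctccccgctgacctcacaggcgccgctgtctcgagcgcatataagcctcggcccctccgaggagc
Etnk1: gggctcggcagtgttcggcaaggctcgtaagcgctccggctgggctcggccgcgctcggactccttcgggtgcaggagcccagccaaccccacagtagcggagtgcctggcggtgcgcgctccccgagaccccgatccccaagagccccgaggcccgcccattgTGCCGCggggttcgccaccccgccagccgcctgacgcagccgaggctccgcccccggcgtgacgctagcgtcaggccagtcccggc
Smyd1: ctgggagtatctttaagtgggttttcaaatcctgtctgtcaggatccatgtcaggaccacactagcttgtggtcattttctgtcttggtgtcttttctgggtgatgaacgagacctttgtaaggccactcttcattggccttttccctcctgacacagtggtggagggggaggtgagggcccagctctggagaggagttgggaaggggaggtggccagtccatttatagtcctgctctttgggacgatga
The Trh window held 25 CG pairs, the Etnk1 window 31 and the Smyd1 window 2. The median was 18 both for matched members and for all matched genes at 5 RPM in E14. No order by E14 difference is read from these windows, since Bicd1, the second lowest gene, had 8 CG pairs.

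The motif was not more frequent on chromosome 6 than elsewhere. It stood in the promoter windows of 58 of 325 matched genes (17.8%) among the members measured in E14, against 17.7% of 7168 matched genes over all chromosomes and 8.68% of all 32851 windows in the table. Motifs on both strands may share letters and a gene was counted once. Members with the motif had a median E14 difference of −0.30 and those without it −0.35, on the log2 scale defined next. Only 21 of the 29 members that were higher in the E14 knockout, described below, had a promoter in the table. The motif stood in 3 of these 21 (14.3%), against 18.1% of 304 other matched members. With so few genes, no difference is read from these shares.

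Of the 1318 members, 357 had 0 reads in all 4 libraries and 530 had reads but stayed under a mean of 5 RPM in both lines. The remaining members reached a mean of 5 RPM over the 2 libraries of a line, 370 of them in both lines, 12 in E14 only and 49 in JB1 only. Such a mean also admits a gene under 5 RPM in 1 library through its level in the other. A count of 0 allows up to 0.0594 RPM in E14 wild type, the shallowest library, taking 3 reads as the limit. At 5 RPM a gene had between 252 reads (E14 wild type) and 485 reads (JB1 knockout). Differences are log2((knockout RPM + 1)/(wild-type RPM + 1)), which understates the change of low genes, and ratios of RPM carry exact 95% intervals that cover counting error only.

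Nearly all measured chromosome 6 genes were lower in the E14 knockout library than in E14 wild type, by a similar modest amount. Of 382 members at 5 RPM, 340 were lower (89.0%), against 47.5% of 8907 genes over all chromosomes. The median difference was −0.32, against 0.02 for 8498 genes on other chromosomes. The shift was not particular to chromosome 6, because chromosome 14 had a median of −0.30, with 217 of 295 genes lower (73.6%). The other autosomes had medians between −0.01 and 0.06. At least 20% lower on this scale were 188 members, against 8.67% of all genes. At least 2-fold lower was 1 member, Trh (0.292% of all genes), and at least 2-fold higher was 1, Arhgdib (0.831% of all genes). The whole distribution lay lower without becoming wider. The middle 50% of members lay between −0.46 and −0.16, a width of 0.30, against 0.29 for other chromosomes. Each group is 1 library, so these values have no replicate check.

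In JB1 the members were centred near 0. Of 419 members, 203 were lower (48.4%), against 51.4% of 9989 genes over all chromosomes, and the median was 0.017, against −0.014 on other chromosomes. At least 2-fold lower were 5 members (1.41% of all genes) and at least 2-fold higher were 5 (2.05% of all genes). The middle 50% lay between −0.22 and 0.28, a width of 0.51, against 0.48 for other chromosomes. Both widths were larger than in E14. Of the 370 members measured in both lines, 165 were lower in both knockouts, 166 were lower in E14 and higher in JB1, 20 were higher in both, and 19 were higher in E14 and lower in JB1. The same split was not counted over all genes. With 89.0% of members lower in E14 and 48.4% lower in JB1, nothing further is read from it. The difference between the lines was not tested, since each has 1 library per genotype.

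**Figure D1:**
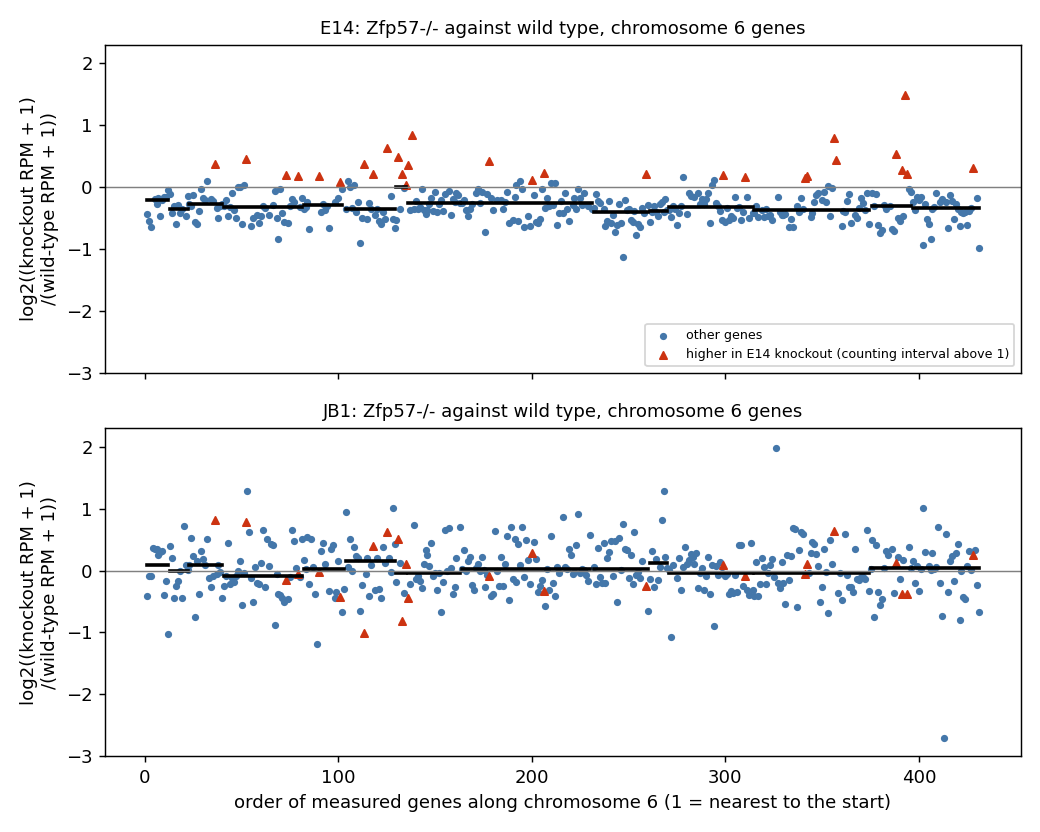
Difference between Zfp57-/- and wild type, log2((knockout RPM + 1)/(wild-type RPM + 1)), for each chromosome 6 gene at a mean of 5 RPM in the line, in order along the chromosome; black bars are medians of 10 Mb windows with at least 5 genes, and red triangles are the 29 genes whose E14 ratio has its counting interval above 1. In E14 the bars lie below 0 in 14 of 15 windows, and in JB1 they lie on both sides of it.

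The displacement ran along the whole chromosome. In 10 Mb windows by gene midpoint (mm9), the E14 median was below 0 in 14 of 15 windows, and these 14 medians ran from −0.40 to −0.21. The lowest of them was at 90 to 100 Mb, where 27 of 28 members were lower. Every member was lower at 0 to 10 Mb (11 genes), 10 to 20 Mb (9 genes) and 100 to 110 Mb (10 genes). The exception was 60 to 70 Mb, with a median of 0.00 over only 6 genes, 3 of them lower. In JB1 the 15 medians ran from −0.09 to 0.16, with 6 below 0.

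The genes nearest to their window's median show what the E14 displacement looked like in single genes. Ing3, a subunit of a histone acetyltransferase complex (21899571 to 21926038), was 43.8 versus 36.0 RPM in E14 and 31.3 versus 33.5 RPM in JB1. Bms1, a ribosome assembly factor (118333401 to 118369435), was 105 versus 84.2 RPM in E14 and 139 versus 186 RPM in JB1. Mrps35, a mitochondrial ribosomal protein (146991286 to 147019425), was 19.2 versus 14.8 RPM in E14 and 23.8 versus 32.3 RPM in JB1. All 3 were lower in the E14 knockout and higher in the JB1 knockout, as were 10 of the 15 genes nearest to their window's median. Over the 370 members measured in both lines, 166 had that pattern and 165 were lower in both. No common pattern is read from these 15 genes.

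Suclg1 and Suclg2, which encode subunits of succinyl-CoA ligase, lie in different windows. Suclg1 was 39.9 versus 33.3 RPM in E14 and 42.8 versus 70.0 RPM in JB1. Suclg2 was 67.8 versus 51.5 RPM in E14 and 94.5 versus 146 RPM in JB1. Both thus differed in opposite directions in the lines. The other genes nearest to a window median with a difference below 0 were Rpa3, Mdfic, Klhdc10, Gm16630, Znrf2, AW146020, Shq1, Cecr5, 2700089E24Rik and, at 60 to 70 Mb, Gadd45a, with E14 differences from −0.41 (Shq1) to −0.02 (Gadd45a). In JB1, Mdfic (−0.44), Klhdc10 (−0.22), Gm16630 (−0.03), Gadd45a (−0.37) and 2700089E24Rik (−0.75) were lower and the other 5 were higher, from 0.03 (AW146020) to 0.32 (Shq1).

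The displacement was present in every class of level, strand and gene length in the genome. The E14 median was −0.31 for members on the plus strand and −0.32 for those on the minus strand. From the lowest to the highest tertile of level over all genes it was −0.26, −0.35 and −0.34. From the shortest to the longest tertile of gene span it was −0.22, −0.31 and −0.38, but genes on other chromosomes followed the same order (0.08, 0.02 and −0.03). Relative to them, the 3 span classes of chromosome 6 lay at −0.30, −0.33 and −0.36.

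When the E14 libraries were set beside both JB1 libraries, which E14 library stood apart depended on the scale. Reads in the members made up 4.87% of all reads in listed genes in E14 wild type (95% Wilson interval 4.863 to 4.879), 3.93% in the E14 knockout (3.925 to 3.937), 3.92% in JB1 wild type (3.919 to 3.930) and 4.02% in the JB1 knockout (4.019 to 4.029). The intervals cover counting error only. On this scale E14 wild type was high and the E14 knockout lay beside both JB1 libraries. On the deposited RPM scale, the members summed to 25864 RPM in E14 wild type, 21113 RPM in the E14 knockout, and 26914 versus 27734 RPM in JB1. There the E14 knockout was low and E14 wild type lay nearer to JB1. On that scale, however, genes on other chromosomes were also lower in both E14 libraries. Their median log2 ratio against JB1 wild type was −0.45 for E14 wild type and −0.42 for the E14 knockout. The scales differ because listed genes held 53.1% and 53.7% of the scaling total in the E14 libraries and 68.6% and 68.9% in the JB1 libraries.

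**Figure D2:**
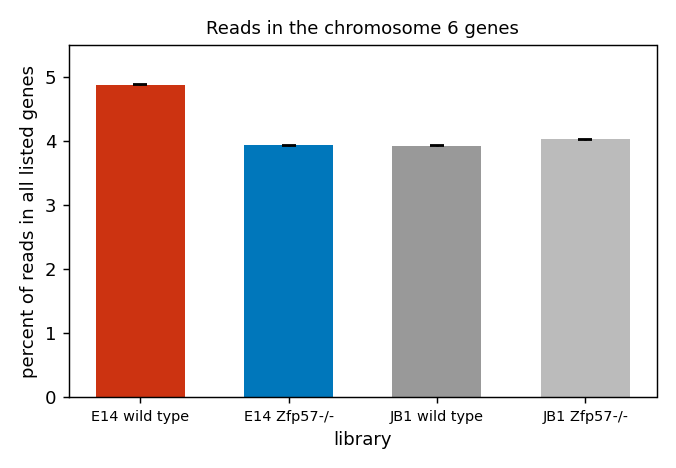
Percent of the reads in all listed genes that fell in the 1318 chromosome 6 genes, for each of the 4 libraries; error bars are 95% Wilson intervals (counting error only). E14 wild type stands at 4.87% and the other libraries between 3.92% and 4.02%, an order that differs on the deposited RPM scale.

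Ratios gene by gene depended on the scale in the same way. They are a description only, since the tables may have been scaled separately. As deposited, the median over the 370 members measured in both lines was −0.05 for E14 wild type and −0.38 for the E14 knockout against JB1 wild type, and −0.08 and −0.42 against the JB1 knockout. Each ratio was then centred on the median of 8264 genes on other chromosomes, which was −0.45 for E14 wild type and −0.42 for the E14 knockout against JB1 wild type. Over the same members, the centred median of E14 wild type against JB1 wild type was 0.40, with 277 members above 0 (74.9%). Against the JB1 knockout it was 0.38. The other 18 autosomes ran from −0.35 (chromosome 1) to 0.15 (chromosome 18) against JB1 wild type, so chromosome 6 lay above all of them, and chromosome X lay at 0.25. For the E14 knockout the chromosome 6 medians were 0.04 against JB1 wild type, with 195 of 370 members above 0, and 0.00 against the JB1 knockout. The other autosomes then ran from −0.37 to 0.15 and from −0.43 (chromosome 14) to 0.16. Chromosome 14, also lower in the E14 knockout, differed from chromosome 6 here. Against JB1 wild type it lay at −0.02 for E14 wild type and −0.34 for the E14 knockout.

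**Figure D3:**
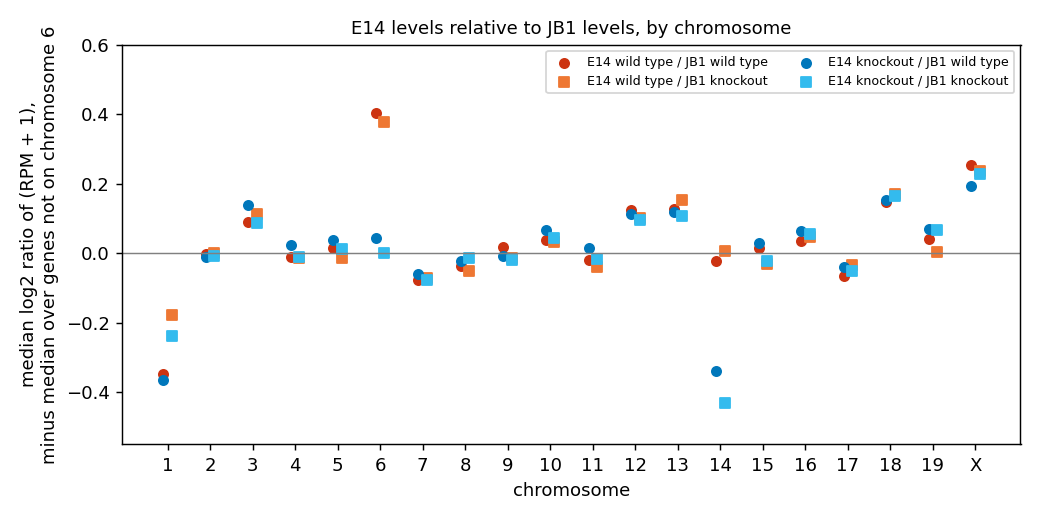
Median over genes of the log2 ratio of (RPM + 1) between an E14 and a JB1 library, by chromosome, after subtracting the median over genes not on chromosome 6. On chromosome 6 both ratios of E14 wild type (red and orange) stand at 0.38 to 0.40 and both ratios of the E14 knockout (blue) at 0.00 to 0.04; without the subtraction they are −0.05 to −0.08 and −0.38 to −0.42.

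After this centring, the pattern extended along the chromosome. Against JB1 wild type, the window medians of E14 wild type were above 0 in all 15 windows, from 0.10 at 130 to 140 Mb to 0.70 at 10 to 20 Mb. For the E14 knockout they lay on both sides of 0, with 8 windows above and 7 below, from −0.18 to 0.39. The 2 lines differ in strain, and a difference between them cannot be told apart from one between strains. Relative to genes on other chromosomes, chromosome 6 stood apart in E14 wild type, at a median of 0.40 against JB1 wild type. In the E14 knockout it lay at 0.04. Without that reference, a high E14 wild type and a low E14 knockout cannot be told apart across these tables.

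The steepest E14 differences were larger than the displacement of the chromosome. Trh, the precursor of thyrotropin-releasing hormone (92192055 to 92194644, minus strand), was 59.6 RPM in E14 wild type, 26.8 RPM in the E14 knockout, and 7.05 versus 12.6 RPM in JB1. Both E14 libraries lay above both JB1 libraries. It was 2.23-fold lower in the E14 knockout (95% interval 2.10 to 2.36) and 1.79-fold higher in the JB1 knockout (1.61 to 1.99).

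Ldhb, the lactate dehydrogenase B subunit (142438769 to 142456477, minus strand), was 166 versus 86.6 RPM in E14 and 39.3 versus 80.1 RPM in JB1. E14 wild type was high and JB1 wild type low, while the 2 knockouts were close on the deposited scale. After centring on other chromosomes, the log2 ratio of the E14 knockout to the JB1 knockout was 0.53. Ldhb was 1.92-fold lower in E14 (1.86 to 1.99) and 2.04-fold higher in JB1 (1.95 to 2.13). Hibadh, an enzyme of valine breakdown (52496222 to 52590383, minus strand), was 61.0 versus 32.1 RPM in E14 and 79.1 versus 50.1 RPM in JB1, lower in both knockouts. Bicd1, an adaptor of the dynein motor (149357506 to 149511851, plus strand), was 18.2 versus 8.73 RPM in E14 and 16.2 versus 9.88 RPM in JB1. It too was lower in both, 2.09-fold in E14 (1.88 to 2.31) and 1.64-fold in JB1 (1.51 to 1.79).

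Etnk1, an ethanolamine kinase of phospholipid synthesis (143115750 to 143157062, plus strand), differed in E14 and hardly at all in JB1. It was 184 versus 102 RPM in E14 and 233 versus 236 RPM in JB1. Ubn2, a partner of the histone chaperone HIRA, was 90.3 versus 50.3 RPM in E14 and 94.2 versus 72.5 RPM in JB1. Dusp16, a phosphatase of MAP kinases, was 24.9 versus 14.5 RPM in E14 and 28.7 versus 19.2 RPM in JB1, and A130022J15Rik was 6.93 versus 3.64 RPM in E14 and 10.2 versus 9.73 RPM in JB1. These 3 were lower in both knockouts, with the JB1 interval of A130022J15Rik holding 1 (0.863 to 1.05 as knockout over wild type).

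Few members were higher in the E14 knockout, and those with a counting interval above 1 are called escaping genes. The name gives a direction only. A distribution moved lower at a similar width keeps an upper tail, and the 95th percentile was 0.20 for members and 0.46 on other chromosomes. Whether any gene was exempt from the displacement was not tested. In 29 of 382 (7.59%) the E14 ratio was above 1 with its counting interval, against 34.9% of all genes. Of these 29, 12 were at least 25% higher, a count with no share over all genes beside it. Another 13 members were higher with an interval that held 1. The interval was below 1 in 313 members (81.9%), against 30.1% of all genes. At the threshold, Igf2bp3 and Grcc10 lay just inside (lower bounds 1.002 and 1.005) and Ogg1 and Cbx3 just outside (0.999 and 0.992). The 29 lay from 29.4 to 149 Mb, 12 on the plus strand and the others on the minus strand, and 10 overlapped another row of the table. The strand setting of the counting is not given, so reads of overlapping genes such as Grcc10 and Atn1 may be shared.

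Arhgdib, an inhibitor of small GTPases known from blood cells (136872044 to 136890420, minus strand), stood furthest apart. It was 4.91 RPM in E14 wild type, 15.6 RPM in the E14 knockout, and 2.73 versus 4.60 RPM in JB1. The E14 knockout was the high library. The ratio was 3.18 in E14 (2.77 to 3.67) and 1.68 in JB1 (1.42 to 2.01). Smyd1, a methyltransferase of muscle (71163934 to 71272227, minus strand), was 4.10 versus 8.15 RPM in E14 and 0.910 versus 1.91 RPM in JB1, but its row overlaps Krcc1 and Gm1070. Tapbpl, which edits peptides on MHC class I molecules (125173951 to 125181878, minus strand), was 3.45 versus 6.68 RPM in E14 and 7.62 versus 12.5 RPM in JB1, and it overlaps Vamp1.

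Other escaping genes were likewise higher in both knockouts. Ppm1k, a mitochondrial phosphatase that activates branched-chain amino acid breakdown (57456496 to 57485420, minus strand), was 11.2 versus 17.8 RPM in E14 and 23.9 versus 37.2 RPM in JB1. Akr1b3, aldose reductase (34253934 to 34267497, minus strand), was 97.8 versus 134 RPM in E14 and 194 versus 333 RPM in JB1. The ratios were 1.60 and 1.37 in E14 and 1.56 and 1.72 in JB1. The row of Akr1b3 overlaps Gm14546, and it has close paralogs that may share reads.

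Tuba3a, an alpha-tubulin with near-identical copies, was 11.0 versus 15.2 RPM in E14 and 3.77 versus 4.17 RPM in JB1, and Gm8994 was 6.30 versus 9.53 RPM in E14 and 8.38 versus 9.25 RPM in JB1. In JB1 the intervals of both held 1. Scrn1, a secernin gene (54455884 to 54516483, minus strand), went the opposite way in the lines, at 28.2 versus 36.9 RPM in E14 and 16.03 versus 7.47 RPM in JB1. Serbp1, an mRNA-binding protein gene (67216973 to 67239296, plus strand), was among the 29 with a ratio of only 1.02, at 957 versus 976 RPM in E14 and 875 versus 938 RPM in JB1.

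The escaping genes had no common direction in JB1. Of the 26 also at 5 RPM in JB1, 12 were higher there, with a median of −0.04, against 0.00 for the 344 other members measured in both lines. Relative to JB1 wild type, their median after the same centring was 0.20 in E14 wild type and 0.38 in the E14 knockout, while the other members had 0.42 and 0.00. These values describe genes chosen by their E14 ratio, which fixes the order of the 2 E14 libraries.

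**Figure D4:**
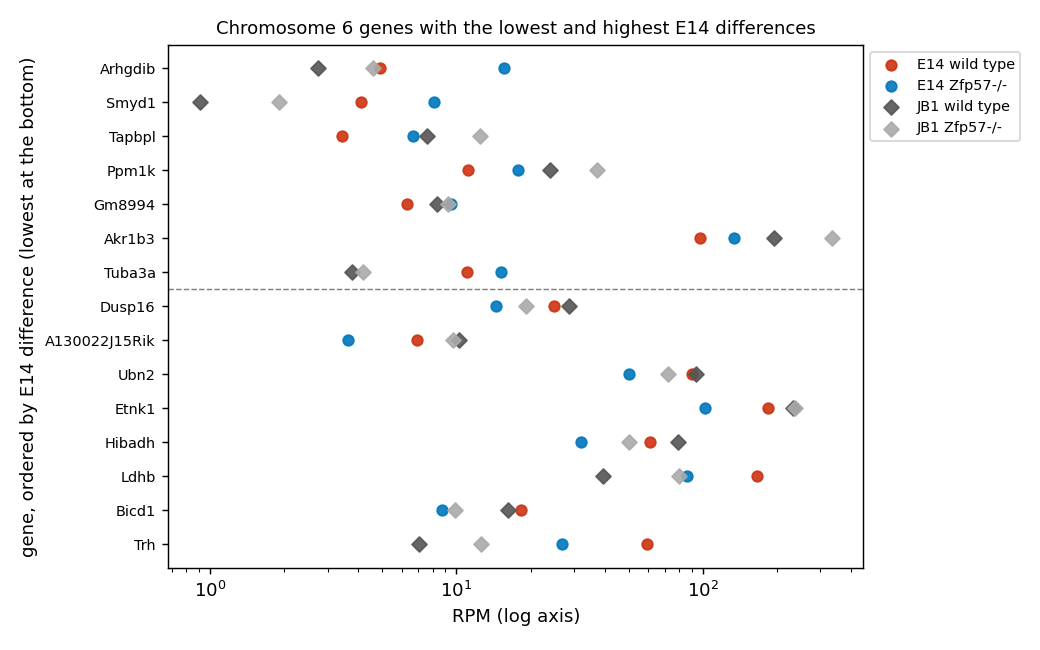
Level in RPM, on a log axis, in each of the 4 libraries for the 8 members with the lowest E14 difference and 7 of the 8 with the highest, ordered by that difference with the lowest at the bottom. Below the dashed line E14 wild type (red) lies to the right of the E14 knockout (blue), as for Trh at 59.6 and 26.8 RPM, and above it to the left, as for Arhgdib at 4.91 and 15.6 RPM.

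The E14 median was below 0 in each of the 7 functional groups with measured members, as for the chromosome as a whole. The counts below stand against 89.0% of measured members lower in E14 and 49.2% lower by at least 20%, where all genes had 47.5% and 8.67%, and against 48.4% of members and 51.4% of all genes lower in JB1. The groups were not tested against these shares, and nothing particular to a group is read from its counts. Among genes of RNA processing and translation, all 23 were lower in the E14 knockout and 9 by at least 20%, with a median of −0.25, and in JB1 10 of 23 were lower. Gars, glycyl-tRNA synthetase, was 570 versus 416 RPM in E14 and 468 versus 374 RPM in JB1. Hnrnpa2b1, a splicing regulator, was 550 versus 436 RPM in E14 and 1521 versus 1513 RPM in JB1, where both libraries lay far above E14. Cnbp, a nucleic acid-binding protein gene, was 567 versus 530 RPM in E14 and 446 versus 464 RPM in JB1. Hnrnpf, another abundant splicing factor outside the list, was 955 versus 858 RPM in E14 and 961 versus 912 RPM in JB1.

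Chromatin and transcription regulators were lower in E14 in 24 of 26 measured rows, 14 of them by at least 20%, and the median was −0.33. Atf7ip stands on 2 of these rows. Chd4, the helicase of the NuRD complex (125045999 to 125080609, plus strand), was 275 versus 260 RPM in E14 and 348 versus 444 RPM in JB1. Mitf, a transcription factor of pigment cells, was the member of this list among the escaping genes, at 28.8 and 33.3 RPM in E14. In JB1, 19 of 28 were lower, with a median of −0.19. Bhlhe40, a repressor linked to the clock and the hypoxia response, stood out there at 6.62 and 17.5 RPM, 2.64-fold higher (2.38 to 2.94), against 6.28 and 4.47 RPM in E14. Its row overlaps 0610040F04Rik, and the rows of Hnrnpf, Mkrn1, Bcat1 and Itpr2 also overlap genes of the opposite strand.

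All 11 measured signalling genes were lower in E14, 7 by at least 20%, with a median of −0.43, and 11 of 14 were lower in JB1 (median −0.13). Itpr2, a calcium release channel of the endoplasmic reticulum (146056821 to 146450745, minus strand), had the lowest JB1 difference of all members. It was 11.7 versus 0.949 RPM in JB1, 12.4-fold lower (9.96 to 15.5), and 1.98 and 1.46 RPM in E14. JB1 wild type was the high library.

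Genes of metabolism and mitochondria were lower in 15 of 18 cases in E14 (median −0.35) and higher in 15 of 22 in JB1 (median 0.27). Bcat1, a branched-chain aminotransferase, was 359 versus 279 RPM in E14 and 307 versus 375 RPM in JB1. Akr1b8, a paralog of Akr1b3, was 16.1 versus 40.8 RPM in JB1 and 2.81 versus 5.12 RPM in E14, where it stayed under a mean of 5 RPM. Among DNA replication and repair genes 8 of 10 were lower in E14 (median −0.25), with Mcm2, a subunit of the replicative helicase, at 387 versus 361 RPM in E14 and 329 versus 333 RPM in JB1. In JB1 6 of 12 were lower (median −0.02).

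All 4 measured cell division genes were lower in E14 (median −0.39) and 3 of 4 were higher in JB1. Ncapd2, a condensin subunit, was 133 versus 95.6 RPM in E14 and 140 versus 198 RPM in JB1. In membrane traffic and protein folding 16 of 17 were lower in E14 (median −0.19), with Mkrn1, a ubiquitin ligase, at 297 versus 259 RPM in E14 and 320 versus 506 RPM in JB1. In JB1 7 of these 17 were lower (median 0.02). Tra2a was counted both in this group and in RNA processing and translation, so these groups share a gene. None of these groups had a member at least 2-fold lower or higher in E14.

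The members listed as developmental regulators or as tissue-restricted families were under a mean of 5 RPM in both lines. Among 24 Hoxa and other developmental regulators, the highest level was 2.10, 1.97, 2.43 and 7.76 RPM in E14 wild type, E14 knockout, JB1 wild type and JB1 knockout. The last of these was Cntnap2, a neuronal adhesion gene, at 0.968 versus 7.76 RPM in JB1 and 0.535 versus 1.29 RPM in E14, a JB1 difference larger than that of any higher member that passed the limit. Of 170 members in receptor, lectin, immunoglobulin and protease families, 129 had 0 reads in all 4 libraries. The highest of the others was 6.55 RPM, Clec4a1 in the JB1 knockout, against 0.491 RPM in JB1 wild type. Cntnap2 and Clec4a1 were named after their values were seen. The 887 members under 5 RPM in both lines summed to 254 versus 239 RPM in E14 and 311 versus 399 RPM in JB1.

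Besides Itpr2, the members at least 2-fold lower in the JB1 knockout were Arhgef5, Srgap3, Ica1 and Scrn1. Arhgef5, an activator of small GTPases, was 10.4 versus 3.99 RPM in JB1 and 5.82 versus 3.27 RPM in E14, and Srgap3, a Rac inhibitor of SLIT-ROBO signalling, was 54.9 versus 25.6 RPM in JB1 and 18.9 versus 13.1 RPM in E14. Ica1, an islet cell autoantigen gene, was 9.87 versus 4.37 RPM in JB1 and 6.14 versus 5.90 RPM in E14. Vgll4, a cofactor of TEAD factors, was just under that fold, at 13.6 versus 6.85 RPM in JB1 and 5.29 versus 5.83 RPM in E14.

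Besides Ldhb, Bhlhe40 and Akr1b8, the members at least 2-fold higher in the JB1 knockout were A2m and Abcg2. A2m, a secreted protease inhibitor (121586191 to 121629255, plus strand), was 2.79 versus 14.03 RPM in JB1, 5.03-fold higher (4.32 to 5.88), and 1.11 versus 0.934 RPM in E14. Abcg2, an efflux transporter of stem cells (58534517 to 58642863, plus strand), was 30.2 versus 61.7 RPM in JB1 and 35.7 versus 24.7 RPM in E14. Mpp6, a scaffold protein gene whose row overlaps Dfna5, was just under that fold, at 23.3 versus 46.0 RPM in JB1 and 30.6 versus 23.7 RPM in E14. No member measured at 5 RPM in both lines was at least 2-fold different in both on the log2 scale used. Under that limit, Aass, an enzyme of lysine breakdown named after its values were seen, was 1.09 versus 2.93 RPM in E14 and 1.84 versus 5.31 RPM in JB1.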

How the data were processed

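RNA from 1 library per line and genotype was sequenced. Each line has a deposited table, whose cells give the authors' log2 RPM, and their columns were matched to samples by title. TopHat2 2.0.8b, CASAVA 1.8.2, cutadapt and the build mm9 are named in the submitters' processing notes. For the annotation, the counting tool and its strand setting, nothing is given in the sources used here. In each column 0.9 times 2 to the power of (value − lowest value) was a whole number (relative tolerance 0.0001) in 100% of genes with any read. Reads were recovered this way, with the lowest value taken as 0 RPM. Analyses used Python 3.11.15, pandas 2.3.3 and scipy 1.17.1, and the calculations were tested on simulated data.

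No group had replicates, so no test was run, and medians and counts of members stand beside those of all genes. The genes were chosen, and the functional lists and naming rule written, with earlier results of these data known. Named were the 8 lowest and 8 highest E14 and the 6 lowest and 6 highest JB1 differences, the 5 highest levels, any member 2-fold different in both lines, the gene nearest to each window's median, and each list's highest and 2-fold different members. Of these, 2 genes are not reported here. Threshold genes, Mitf, Cntnap2, Aass and Clec4a1 were added after their values were seen. Pseudocount, filter, scaling, window size and the left-out symbols were varied. Coordinates are mm9 except those of promoters; exon and UTR positions were not used, and older symbols were matched to RefSeq through its synonyms.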

Additional observations from a re-analysis of the deposited data

Results flagged for a closer look

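The chromosome 6 median had opposite signs in the lines, −0.32 in E14 and 0.017 in JB1. The JB1 sign turned with TMM scaling, to −0.03, where the median of other chromosomes also moved, from −0.01 to −0.06. Among the named genes, Trh had −1.13 in E14 and 0.76 in JB1, and Ldhb had −0.93 and 1.01; these were the named genes at least 1.5-fold different in opposite directions. With 1 library per line and genotype, none of these differences between lines was tested.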

How the results depend on the processing

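No library could be left out, since each group was 1 library, and no paired analysis was possible because the labels give no replicate numbers and no test was run. The E14 median stayed below 0 under all 7 alternatives. It was −0.26 with a pseudocount of 5 RPM, −0.28 with a filter of 1 RPM, −0.11 over every gene with a read (611 of 880 lower) and −0.35 with TMM factors. With a pseudocount of 0.1 RPM, TMM factors or centring on other chromosomes, 2 members were at least 2-fold lower; with a filter of 1 RPM or none 3 were at least 2-fold higher, and 2 with the left-out symbols put back. The JB1 median was 0.057 with a filter of 1 RPM. It changed sign with TMM factors (−0.03, against −0.06 on other chromosomes) and with the left-out symbols (−0.00, against −0.01). Over every gene with a read, 363 of 916 members were lower, a count chosen after seeing the data. In JB1, a pseudocount of 5 RPM left 1 member at least 2-fold lower and 2 higher, and the count of higher members was 14 with a filter of 1 RPM or none, 3 with TMM factors and 9 with the left-out symbols. Windows of 20 Mb had a range of 0.11 and a highest median of −0.25, so the 60 to 70 Mb value of 0.00 rests on 6 genes. The escaping genes numbered 45 with a filter of 1 RPM and 11 with 20 RPM. The centred median of E14 wild type against JB1 wild type was 0.45 with a filter of 20 RPM. Without centring, an alternative added after seeing the data, E14 wild type had −0.047 and −0.076 against JB1 wild type and knockout, and the E14 knockout −0.38 and −0.42. Among 53 named genes, centring changed the sign of 1 in JB1, and neither centring nor a pseudocount of 0.1 or 5 RPM changed one in E14. The cause of these changes was not tested. Only RNA was measured, 1 library per group.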
